A study of Mus musculus with 18 samples.

Results

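Myc and a set of genes whose products build ribosomes in the nucleolus, 38 genes in all, were followed across 6 groups of mouse macrophages. They were taken by name from a table of raw read counts of 30530 genes, and all 38 were found in it and passed the filter on low counts. The cells were macrophages derived from mouse bone marrow in culture, and their polyadenylated RNA was sequenced in 18 libraries. The agents were 25-hydroxycholesterol (25HC), the oxysterol product of the enzyme cholesterol 25-hydroxylase (Ch25h), and Pam3CSK4 (PAM3), a synthetic lipopeptide sensed by Toll-like receptors 1 and 2. C57BL/6 (B6) cells were given 25HC and then PAM3, PAM3 without 25HC, 25HC and no PAM3, or neither agent. Cells of Ch25h-/- mice received no 25HC and were studied with PAM3 or at rest. Each group held 3 libraries, numbered 1 to 3 by mouse. The labels give 5 µM of 25HC for 18 hours and 300 ng/mL of PAM3, and they set the time of stimulation at 18 with PAM3 and 0 at rest, in no stated unit. No vehicle is named for the untreated cells, no age for the mice, and no length of culture for the cells at rest.

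Ribosomes are assembled in the nucleolus, where RNA polymerase I makes a long precursor of ribosomal RNA. Small nucleolar ribonucleoproteins guide the chemical modification of this precursor, and separate sets of assembly factors cut, fold and export the small and the large subunit. Myc is a transcription factor that binds the sequence CACGTG (the E-box) as a dimer with Max, and it is known to raise the expression of many genes of this pathway in growing cells. In macrophages Myc is an early response gene of growth factor signalling.

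Library totals spanned 14.04 M to 150.4 M counts. Ch25h, the gene deleted in the Ch25h-/- mice, had 0 to 2 counts in each Ch25h-/- library and 76 to 1031 counts in each B6 library. Of 11 symbols listed as macrophage markers 10 were in the file and all 10 were detected, with Lyz2 highest. The symbol not found, Adgre1, is the newer name of Emr1, which was in the file. Among markers of other cells, the summed level of the T, B and NK cell list stayed at or below 0.676 CPM (scaled counts per 1e+06 counts) in every library and Cd3e was at 0 throughout, the dendritic cell list at or below 5.44 CPM, the fibroblast list at or below 11.4 CPM and the erythroid and progenitor list at or below 7.05 CPM. The neutrophil list summed to 17.4 to 89.1 CPM in Ch25h-/- cells at rest and to 2.66 to 24.4 CPM in the other groups. Replicate 2 stood apart at rest: it held the lowest level in its group for 38 of the 38 genes in 25HC-treated B6 cells, for 35 in Ch25h-/- cells and for 37 in untreated B6 cells. The same ranking was not counted over all tested genes. Because replicate 2 stood apart, counts of genes are also given without replicate 2 of every group, an alternative chosen after seeing the data. It was picked by the levels of these same genes, so leaving it out tends to narrow their spread at rest in advance. Calls gained in that setting are descriptions and no added support.

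The stretch around the transcription start is shown for the genes in which an E-box lies there, because CACGTG is the sequence that Myc is known to bind. Start regions of 32 of the 38 genes were in the RefSeq table for GRCm38.p6, as windows of 300 bases from 250 before to 50 after the start. Myc, Npm1, Bop1, Fbl, Rrp12 and Rrs1 were not in it. CACGTG, which reads the same on both strands, occurred in 8 of the 32 genes (25.0%), against 17 of 96 other ribosome biogenesis genes (17.7%), 6 of 58 ribosomal protein genes (10.3%) and 1107 of 9436 tested genes (11.7%). All 8 matches lay just after the start, and with the start base counted as 1 they began at base 3 in Pes1, 18 in Wdr43, 24 in Nle1, 25 in Tsr1, 29 in Ltv1, 35 in Grwd1, 38 in Utp20 and 41 in Mybbp1a. The sequences run from 120 bases before the start to 30 bases from it, on the strand of the gene, with the match in capitals, for the 4 genes whose match ends in that span. They lie on GRCm38 at chr11:3963855-3964004 (plus strand, Pes1), chr17:71616095-71616244 (plus strand, Wdr43), chr11:82908366-82908515 (minus strand, Nle1) and chr11:74897960-74898109 (plus strand, Tsr1). A match describes these letters and does not show that Myc binds there.
Pes1: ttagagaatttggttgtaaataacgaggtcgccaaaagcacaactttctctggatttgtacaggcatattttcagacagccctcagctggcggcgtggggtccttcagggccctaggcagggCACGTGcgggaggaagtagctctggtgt
Wdr43: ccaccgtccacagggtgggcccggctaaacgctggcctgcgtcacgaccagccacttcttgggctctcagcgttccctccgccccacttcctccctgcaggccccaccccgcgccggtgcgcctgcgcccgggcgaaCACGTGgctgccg
Nle1: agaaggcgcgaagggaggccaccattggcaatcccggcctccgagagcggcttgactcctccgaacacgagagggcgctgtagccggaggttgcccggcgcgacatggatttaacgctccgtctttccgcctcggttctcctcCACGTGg
Tsr1: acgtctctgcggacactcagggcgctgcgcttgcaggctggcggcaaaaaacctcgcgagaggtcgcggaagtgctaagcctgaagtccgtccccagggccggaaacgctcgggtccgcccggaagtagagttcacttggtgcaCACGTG

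Summed over the 38 genes, the level was 2823 ± 74.2 CPM in 25HC-treated B6 cells with PAM3, 2564 ± 169 CPM in Ch25h-/- cells with PAM3 and 2390 ± 73.7 CPM in untreated B6 cells with PAM3 (SD, n = 3 each). At rest the sum was 2115 ± 459 CPM after 25HC, 1258 ± 192 CPM in Ch25h-/- cells and 1252 ± 293 CPM in untreated B6 cells (SD, n = 3 each). Resting cells given 25HC thus spanned 1586 to 2403 CPM, all above the 937 to 1518 CPM of untreated B6 cells at rest. By gene, the highest group mean was in 25HC-treated cells with PAM3 for 20 genes, in Ch25h-/- cells with PAM3 for 10, in untreated B6 cells with PAM3 for 6 and in 25HC-treated cells at rest for 2. Ch25h-/- cells at rest held the lowest mean for 30 genes, untreated B6 cells at rest for 7 and 25HC-treated cells at rest for 1. None of the 38 genes passed the test of Ch25h-/- against untreated B6 cells at rest. The order of group means was not counted over all tested genes. Per kilobase of exon, the genes ran from 1.51 CPM for Wdr12 to 43.6 CPM for Npm1, averaged over groups. Myc varied most between groups, with a ratio of highest to lowest group mean of 9.40, followed by Rrp12 at 7.19 and Bysl at 6.68, and Npm1 varied least at 1.26.

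**Figure D1:**
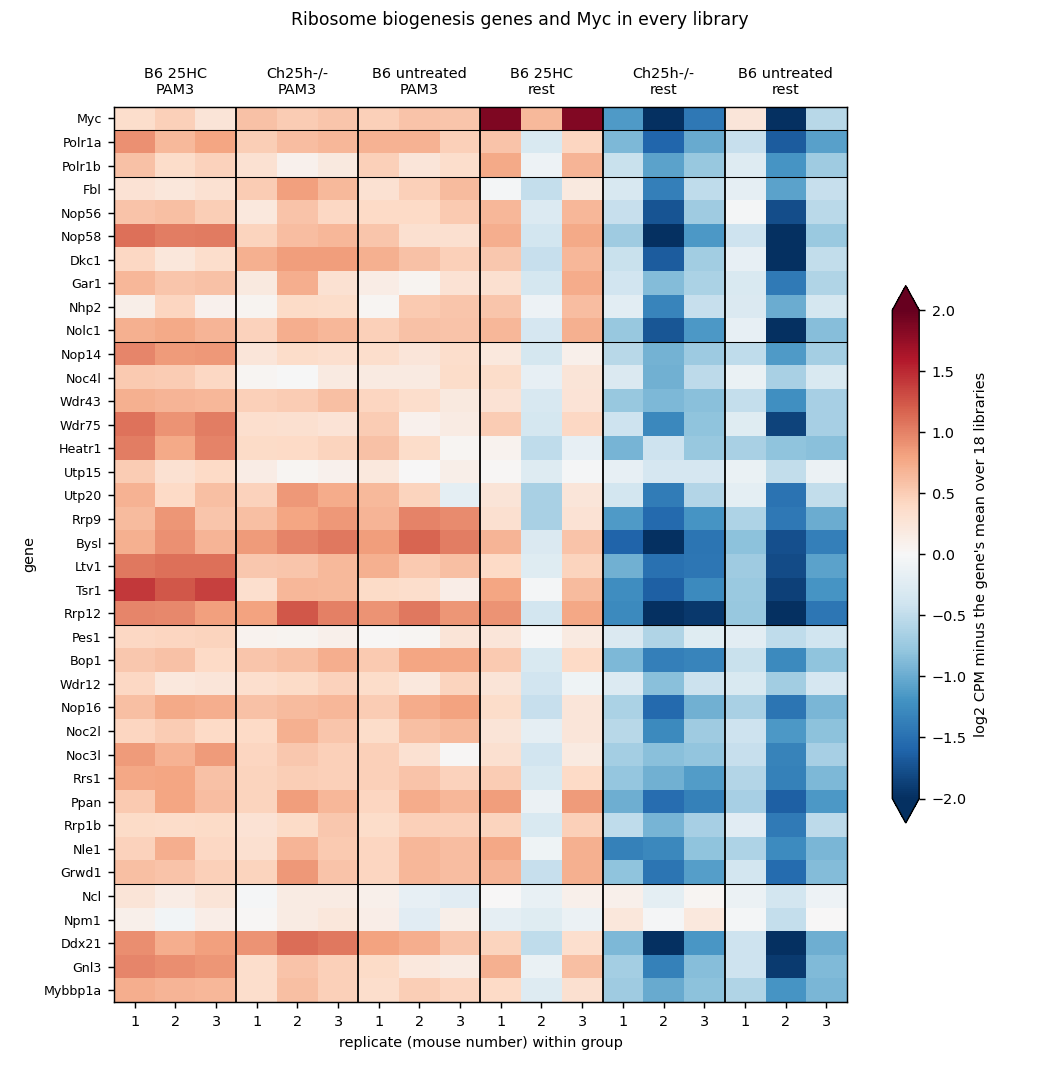
Level of each of the 38 genes (rows, grouped by role) in each of the 18 libraries (columns, grouped by condition), as log2 CPM minus the gene's mean over all libraries. Untreated B6 and Ch25h-/- libraries at rest are low for most genes, 25HC-treated libraries at rest lie higher, replicate 2 at rest is the lowest of its group for at least 35 of the 38 genes, and Ncl and Npm1 vary little.

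Treatment with 25HC at rest was compared with no treatment in B6 cells. Of the 38 genes 31 rose and none fell, against 14.8% of all 12741 tested genes that rose and 11.4% that fell (edgeR quasi-likelihood test, two-sided, Benjamini-Hochberg adjusted p below 0.05 over all tested genes). The median log2 fold change was 1.05 over the 38 genes and -0.01 over all tested genes. By role, Myc, both RNA polymerase I subunits, 5 of 7 small nucleolar ribonucleoprotein genes, 10 of 12 small subunit factors, 10 of 11 large subunit factors and 3 of 5 other nucleolar proteins rose. Wdr12, Ncl, Npm1, Utp15, Utp20, Dkc1 and Fbl did not pass the test. In every fit that left out 1 of the 6 libraries, 21 of the 31 calls held. The count was 33 without replicate 2 of every group and 35 with the mouse as block, and 17 where only these 6 libraries were fitted. Under the block 5051 of 12198 tested genes passed in either direction. In bulk samples a change in the share of cells of one kind and a change of RNA per cell cannot be told apart. Summed macrophage markers were 22566 to 24850 CPM in 25HC-treated cells at rest and 28008 to 35856 CPM in untreated cells at rest, and the part of this in the result was not tested. None of the 20 cell cycle genes passed the test here, with a median log2 fold change of -0.27, although 9 were lower without replicate 2 of every group and 3 with the mouse as block.

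Myc (chromosome 15, 61985391 to 61990374, plus strand, GRCm38) showed the highest level of any group in resting cells given 25HC. It lay at 74.8, 32.2 and 74.0 CPM in 25HC-treated cells at rest, against 24.2, 3.11 and 14.0 CPM in untreated B6 cells at rest, in the order of mice 1 to 3. The groups did not overlap, and mouse 2 was the lowest in both. The log2 fold change was 2.15 ± 0.54 (SE, edgeR adjusted p = 0.00969), higher in 3 of 3 mice, and it passed the test without any 1 library, with an adjusted p of at most 0.0431. With PAM3, Myc was at 26.0, 28.3 and 24.4 CPM after 25HC, 30.7, 29.1 and 30.1 CPM in Ch25h-/- cells, and 28.6, 30.4 and 29.9 CPM in untreated B6 cells. The libraries with PAM3 thus lay close together, within 24.4 to 30.7 CPM, below all 25HC-treated libraries at rest.

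Both subunits of RNA polymerase I rose with 25HC at rest. Polr1a, which encodes the largest subunit (chromosome 6, 71909053 to 71984935, plus strand), was at 85.4, 46.7 and 78.0 CPM after 25HC, against 42.1, 18.2 and 27.2 CPM in untreated cells, with no overlap (log2 fold change 1.27 ± 0.26, edgeR adjusted p = 0.00327). Polr1b, which encodes the next largest subunit, was at 28.9, 15.9 and 27.4 CPM after 25HC, against 14.2, 7.56 and 10.5 CPM in untreated cells (1.17 ± 0.23, edgeR adjusted p = 0.00244). Neither call was lost without any 1 library.

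The small nucleolar ribonucleoprotein genes moved the same way with more spread. Nop58, a core protein of the box C/D particles that guide ribose methylation, was at 70.4, 33.1 and 71.8 CPM after 25HC, against 32.1, 9.47 and 25.5 CPM in untreated cells at rest (log2 fold change 1.39 ± 0.38, edgeR adjusted p = 0.0144). Nop56, its partner in the particle, was at 68.8, 35.8 and 68.2 CPM after 25HC, against 42.2, 12.7 and 29.9 CPM in untreated cells (1.03 ± 0.36, edgeR adjusted p = 0.0447), and here the groups overlapped. Gar1, a core protein of the box H/ACA particles that guide pseudouridylation, was at 10.5, 6.63 and 14.1 CPM after 25HC, against 6.83, 3.15 and 5.52 CPM in untreated cells (1.03 ± 0.27, edgeR adjusted p = 0.0129). Nolc1, a chaperone of both kinds of particle, and Nhp2, of the H/ACA core, rose by log2 fold changes of 1.25 ± 0.35 and 0.90 ± 0.26 (edgeR adjusted p = 0.0180 and 0.0200). The groups also overlapped for Gar1 and Nolc1. Each of these 5 calls was lost in at least 1 fit without a library: Gar1 without 25HC replicate 3, Nop58 without 25HC replicate 1 or 3, and the other 3 without these or an untreated replicate, with adjusted p up to 0.160. Fbl, the methyltransferase of the box C/D particles (0.45 ± 0.24, edgeR adjusted p = 0.181), and Dkc1, the pseudouridine synthase (1.08 ± 0.42, edgeR adjusted p = 0.0665), did not pass, and passed with the mouse as block (adjusted p = 0.0437 for Fbl and 0.00889 for Dkc1).

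Among factors of the small subunit 10 of 12 rose. Rrp12, which takes part in maturation and export of the precursor (chromosome 19, 41862851 to 41896173, minus strand), was at 34.6, 14.4 and 31.7 CPM after 25HC, against 11.0, 4.43 and 6.85 CPM in untreated cells at rest (log2 fold change 1.87 ± 0.34, edgeR adjusted p = 0.00152). Tsr1, an assembly factor of the cytoplasmic precursor (chromosome 11, 74898071 to 74909342, plus strand), was at 65.9, 37.2 and 59.2 CPM after 25HC, against 22.7, 10.5 and 16.9 CPM in untreated cells (1.70 ± 0.24, edgeR adjusted p = 0.000283). Bysl, which acts beside these (chromosome 17, 47599331 to 47611492, minus strand), was at 34.2, 17.4 and 31.6 CPM after 25HC, against 12.0, 6.27 and 8.24 CPM in untreated cells (1.66 ± 0.25, edgeR adjusted p = 0.000479). For all 3 genes the treated and untreated libraries did not overlap. Ltv1, an export factor of the small subunit, rose by 1.36 ± 0.22 (edgeR adjusted p = 0.000787). The processome proteins Heatr1 (0.58 ± 0.16, edgeR adjusted p = 0.0169) and Noc4l (0.52 ± 0.17, edgeR adjusted p = 0.0344) had the smallest called changes of the small subunit factors. Their calls and that of Wdr75 (1.02 ± 0.31, edgeR adjusted p = 0.0266) were lost without 25HC replicate 1 or 3 or untreated replicate 2 or 3, with adjusted p up to 0.166. Utp15 was at 29.0 ± 3.02 CPM after 25HC and 26.0 ± 3.65 CPM in untreated cells (SD, n = 3 each) and did not pass (edgeR adjusted p = 0.313).

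Large subunit factors rose in 10 of 11 cases. Ppan, needed for processing of the large subunit RNA (chromosome 9, 20888175 to 20892178, plus strand), was at 30.3, 15.6 and 30.7 CPM after 25HC, against 10.7, 5.47 and 7.68 CPM in untreated cells at rest (log2 fold change 1.69 ± 0.26, edgeR adjusted p = 0.000473). Nle1, a late assembly factor with an E-box in the sequence shown above, was at 12.3, 6.78 and 11.7 CPM after 25HC, against 4.70, 3.01 and 3.80 CPM in untreated cells (1.43 ± 0.22, edgeR adjusted p = 0.000559). Rrs1, which helps to load the 5S particle, rose by 1.16 ± 0.20 (edgeR adjusted p = 0.000887). In all 3 genes every treated library lay above every untreated one. The members of the complex of Pes1, Bop1 and Wdr12 differed in size of change: Bop1 had 1.06 ± 0.21 (edgeR adjusted p = 0.00250), Pes1 0.52 ± 0.11 (edgeR adjusted p = 0.00367) and Wdr12 0.39 ± 0.17 (edgeR adjusted p = 0.0953, and 0.0407 with the mouse as block). Of the called genes, Rrp1b (0.90 ± 0.24, edgeR adjusted p = 0.0135) lost its call without 25HC replicate 1 or 3, at adjusted p up to 0.0707.

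Of the other nucleolar proteins, Mybbp1a, Gnl3 and Ddx21 rose, and Ncl and Npm1 did not pass the test. Mybbp1a, which binds Myb and represses RNA polymerase I, was at 194, 123 and 185 CPM after 25HC, against 97.8, 64.9 and 78.7 CPM in untreated cells at rest (log2 fold change 1.06 ± 0.16, edgeR adjusted p = 0.000484). Gnl3 (nucleostemin) rose by 1.39 ± 0.29 (edgeR adjusted p = 0.00328), and Ddx21, an RNA helicase, by 1.16 ± 0.37 (edgeR adjusted p = 0.0296). For Ddx21 the groups overlapped, and its call was lost without 25HC replicate 1 or 3 or untreated replicate 2 or 3 (adjusted p up to 0.121). Ncl (nucleolin) was at 398, 358 and 424 CPM after 25HC, against 367, 309 and 372 CPM in untreated cells, and Npm1 (nucleophosmin) at 101, 97.0 and 106 CPM, against 112, 82.8 and 116 CPM. For these genes the groups overlapped and the log2 fold changes were 0.17 ± 0.12 for Ncl and -0.03 ± 0.13 for Npm1 (edgeR adjusted p = 0.299 and 0.879).

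**Figure D2:**
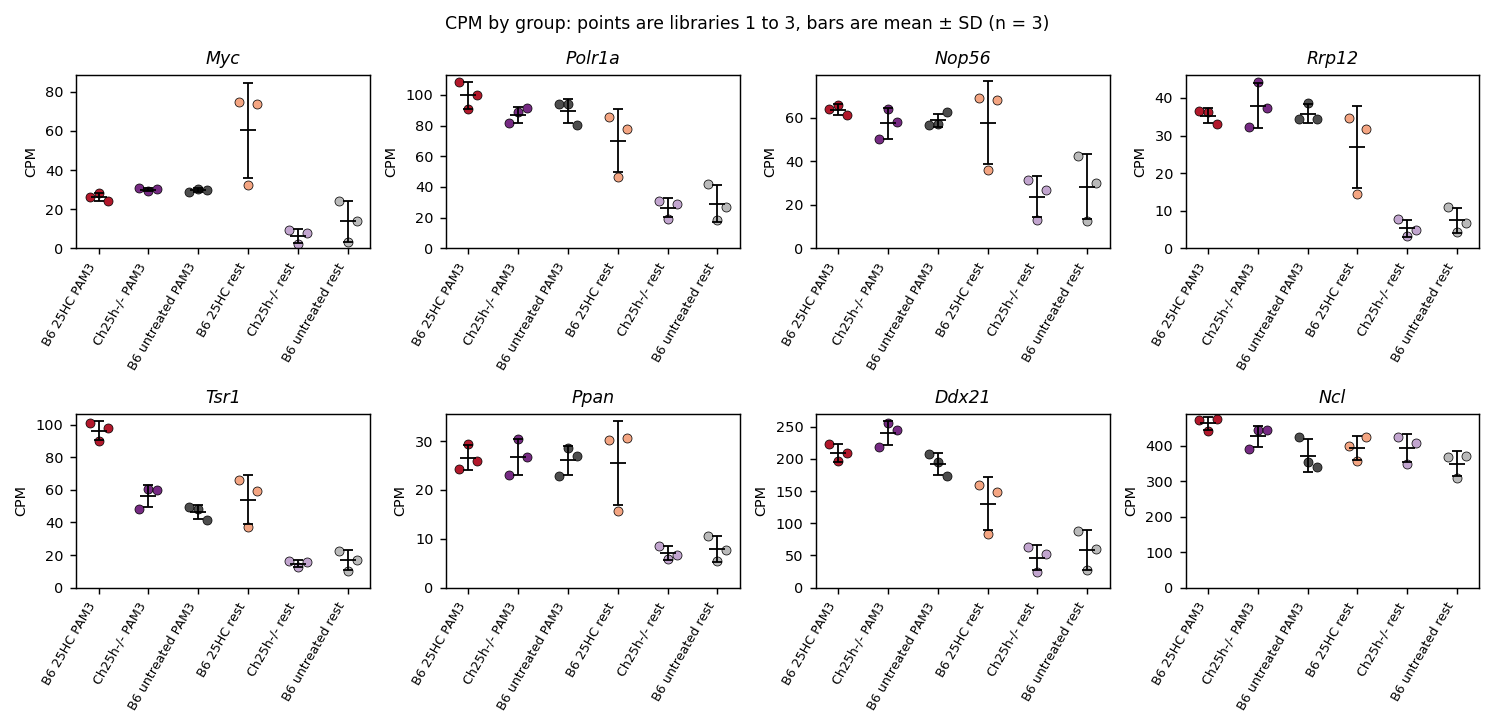
CPM of Myc, Polr1a, Nop56, Rrp12, Tsr1, Ppan, Ddx21 and Ncl by group, with a point for each library and the mean ± SD of 3 libraries. For Myc the 25HC-treated libraries at rest reach 74.8 CPM while all libraries with PAM3 lie within 24.4 to 30.7 CPM, and for Tsr1 25HC-treated cells with PAM3 lie above every other group.

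PAM3 was compared with rest in untreated B6 cells and in Ch25h-/- cells. In untreated B6 cells 35 of the 38 genes rose and none fell, against 31.3% of all tested genes that rose and 30.8% that fell, with a median log2 fold change of 1.17 over the 38 genes and 0.00 over all genes. In Ch25h-/- cells 36 rose and none fell, against 29.9% and 32.1% of all tested genes, with a median of 1.39 over the 38 genes and -0.04 over all genes. Ncl and Npm1 passed in neither, and Myc did not pass in untreated B6 cells. Without replicate 2 of every group the counts were 36 in each. All 36 calls in Ch25h-/- cells and 32 of 35 in untreated B6 cells held without any 1 library; Nop56 and Utp15 were lost without untreated replicate 2 at rest, and Utp20 without that library or untreated replicate 1 with PAM3 (adjusted p up to 0.0765). With the mouse as block Utp15 in untreated B6 cells (adjusted p = 0.0864) and Nhp2 in Ch25h-/- cells (adjusted p = 0.0586) did not pass. Because cells at rest carry a stimulation time of 0, a difference in time in culture and the effect of PAM3 cannot be told apart here. Summed macrophage markers were 46992 to 61240 CPM with PAM3 and 28008 to 35856 CPM at rest in untreated B6 cells, and 17 of 20 cell cycle genes fell. In Ch25h-/- cells the macrophage markers summed to 52094 to 57242 CPM with PAM3 and 31815 to 44243 CPM at rest. The part of these in the result was not tested.

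Myc was higher with PAM3 in every mouse of both genotypes, and passed the test in Ch25h-/- cells. In Ch25h-/- cells it was at 30.7, 29.1 and 30.1 CPM with PAM3, against 9.35, 2.33 and 7.57 CPM at rest (log2 fold change 2.20 ± 0.56, edgeR adjusted p = 0.00323, higher in 3 of 3 mice). In untreated B6 cells it was at 28.6, 30.4 and 29.9 CPM with PAM3, against 24.2, 3.11 and 14.0 CPM at rest (1.12 ± 0.52, edgeR adjusted p = 0.0746, higher in 3 of 3 mice). The B6 groups did not overlap, and the comparison passed without untreated replicate 1 at rest (1.81, adjusted p = 0.0107) and without replicate 2 of every group (0.62, adjusted p = 0.0168). In the fits that left out 1 of the other untreated B6 libraries it did not pass (edgeR adjusted p from 0.108 to 0.187). The difference between the genotypes in this response was 1.09 on the log2 scale and did not pass the test.

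The widest PAM3 responses were those of small subunit factors. Bysl was at 38.1, 47.7 and 43.3 CPM with PAM3, against 12.0, 6.27 and 8.24 CPM at rest in untreated B6 cells (log2 fold change 2.29 ± 0.26, edgeR adjusted p = 2.47e-06). In Ch25h-/- cells Bysl was at 38.4, 42.2 and 44.3 CPM with PAM3, against 7.03, 4.59 and 7.69 CPM at rest (2.69 ± 0.27, edgeR adjusted p = 9.39e-07). Rrp9, a protein of the U3 particle, was at 20.2, 25.2 and 24.5 CPM with PAM3, against 8.25, 4.72 and 6.38 CPM at rest in untreated B6 cells (1.86 ± 0.24, edgeR adjusted p = 7.98e-06). Every PAM3 library of these genes lay above every library at rest of the same genotype. Rrp12 rose by 2.29 ± 0.34 in untreated B6 cells and by 2.83 ± 0.36 in Ch25h-/- cells (edgeR adjusted p = 4.22e-05 and 1.10e-05), and Utp15 had the narrowest called changes, 0.35 ± 0.11 and 0.37 ± 0.11 (edgeR adjusted p = 0.0130 and 0.0110).

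In the other roles all genes but Myc, Ncl and Npm1 rose with PAM3 in untreated B6 cells. Polr1a was at 93.9, 94.0 and 80.6 CPM with PAM3, against 42.1, 18.2 and 27.2 CPM at rest in untreated B6 cells (log2 fold change 1.62 ± 0.26, edgeR adjusted p = 8.41e-05). Fbl, which did not pass with 25HC at rest, was at 14.2, 16.0 and 17.8 CPM with PAM3, against 10.1, 5.47 and 8.33 CPM at rest (1.01 ± 0.24, edgeR adjusted p = 0.00196). Bop1 was at 67.9, 81.6 and 80.5 CPM with PAM3, against 34.5, 19.5 and 26.9 CPM at rest (1.51 ± 0.21, edgeR adjusted p = 2.00e-05). None of these groups overlapped. Nop16, which associates with the large subunit precursor and is a known target of Myc, rose by 1.67 ± 0.24 in untreated B6 cells (edgeR adjusted p = 2.29e-05) and by 1.63 ± 0.24 in Ch25h-/- cells (edgeR adjusted p = 4.06e-05). Ddx21 was at 207, 195 and 173 CPM with PAM3, against 88.3, 26.6 and 59.9 CPM at rest in untreated B6 cells (1.72 ± 0.37, edgeR adjusted p = 0.000906), and rose by 2.36 ± 0.38 in Ch25h-/- cells (edgeR adjusted p = 8.47e-05). Ncl was at 424, 353 and 339 CPM with PAM3, against 367, 309 and 372 CPM at rest in untreated B6 cells, and did not pass (0.09 ± 0.12, edgeR adjusted p = 0.519).

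With PAM3 present, 25HC-treated B6 cells were compared with untreated B6 cells. Of the 38 genes 7 rose and none fell (18.4%), against 21.5% of all tested genes that rose and 23.6% that fell, so the share that rose was near the background. The median log2 fold change was 0.14 over the 38 genes and -0.04 over all genes. The 7 were Tsr1, Heatr1, Nop14 and Utp15 of the small subunit, Pes1 and Noc3l of the large subunit, and Ncl. Tsr1, Heatr1 and Nop14 held without any 1 library. The count was 13 with the mouse as block, 13 without replicate 2 of every group and 13 where only these 6 libraries were fitted, with Gnl3, Nop58, Ltv1, Wdr43 and Wdr75 added under the first and second of these. It fell to 3 without 25HC replicate 1, 25HC replicate 3 or untreated replicate 2, and to 4 without untreated replicate 3. Under the block 6414 of 12309 tested genes passed in either direction, and the share by direction was not counted. Summed macrophage markers were 31006 to 38569 CPM in 25HC-treated cells with PAM3 and 46992 to 61240 CPM in untreated B6 cells with PAM3, with 7 of 10 lower and 1 higher. The neutrophil list summed to 5.34 to 6.66 CPM and 4.93 to 9.48 CPM in these groups, with 2 of 5 tested markers lower. The part of these in the result was not tested.

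Tsr1 was at 101, 90.1 and 97.9 CPM in 25HC-treated cells with PAM3, against 49.7, 48.5 and 41.8 CPM in untreated B6 cells with PAM3 (log2 fold change 1.05 ± 0.23, edgeR adjusted p = 0.00182). Nop14, of the small subunit processome, was at 84.7, 77.4 and 78.7 CPM, against 54.9, 51.1 and 54.9 CPM (0.58 ± 0.15, edgeR adjusted p = 0.00578), in the same order of groups. Heatr1, a processome protein that also acts in RNA polymerase I transcription, was at 154, 128 and 150 CPM, against 114, 97.8 and 77.9 CPM (0.58 ± 0.16, edgeR adjusted p = 0.00822). In these 3 genes all libraries given 25HC lay above all untreated ones with PAM3. Noc3l rose by 0.52 ± 0.19 (edgeR adjusted p = 0.0380), Pes1 by 0.32 ± 0.11 (edgeR adjusted p = 0.0254), Ncl by 0.31 ± 0.12 (edgeR adjusted p = 0.0404) and Utp15 by 0.30 ± 0.11 (edgeR adjusted p = 0.0411); each lost its call without 25HC replicate 1 or 3 or untreated replicate 2 or another library of these groups, with adjusted p up to 0.147. Of the 4 genes with the widest changes at rest, Tsr1 passed here and Myc, Rrp12 and Ppan did not. Rrp12 was at 36.6, 36.3 and 33.0 CPM after 25HC, against 34.5, 38.8 and 34.3 CPM in untreated cells (-0.02 ± 0.32, edgeR adjusted p = 0.961), and Ppan at 24.4, 29.4 and 25.9 CPM, against 22.8, 28.5 and 26.9 CPM (0.03 ± 0.25, edgeR adjusted p = 0.940). Myc had -0.17 ± 0.51 (edgeR adjusted p = 0.806).

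**Figure D3:**
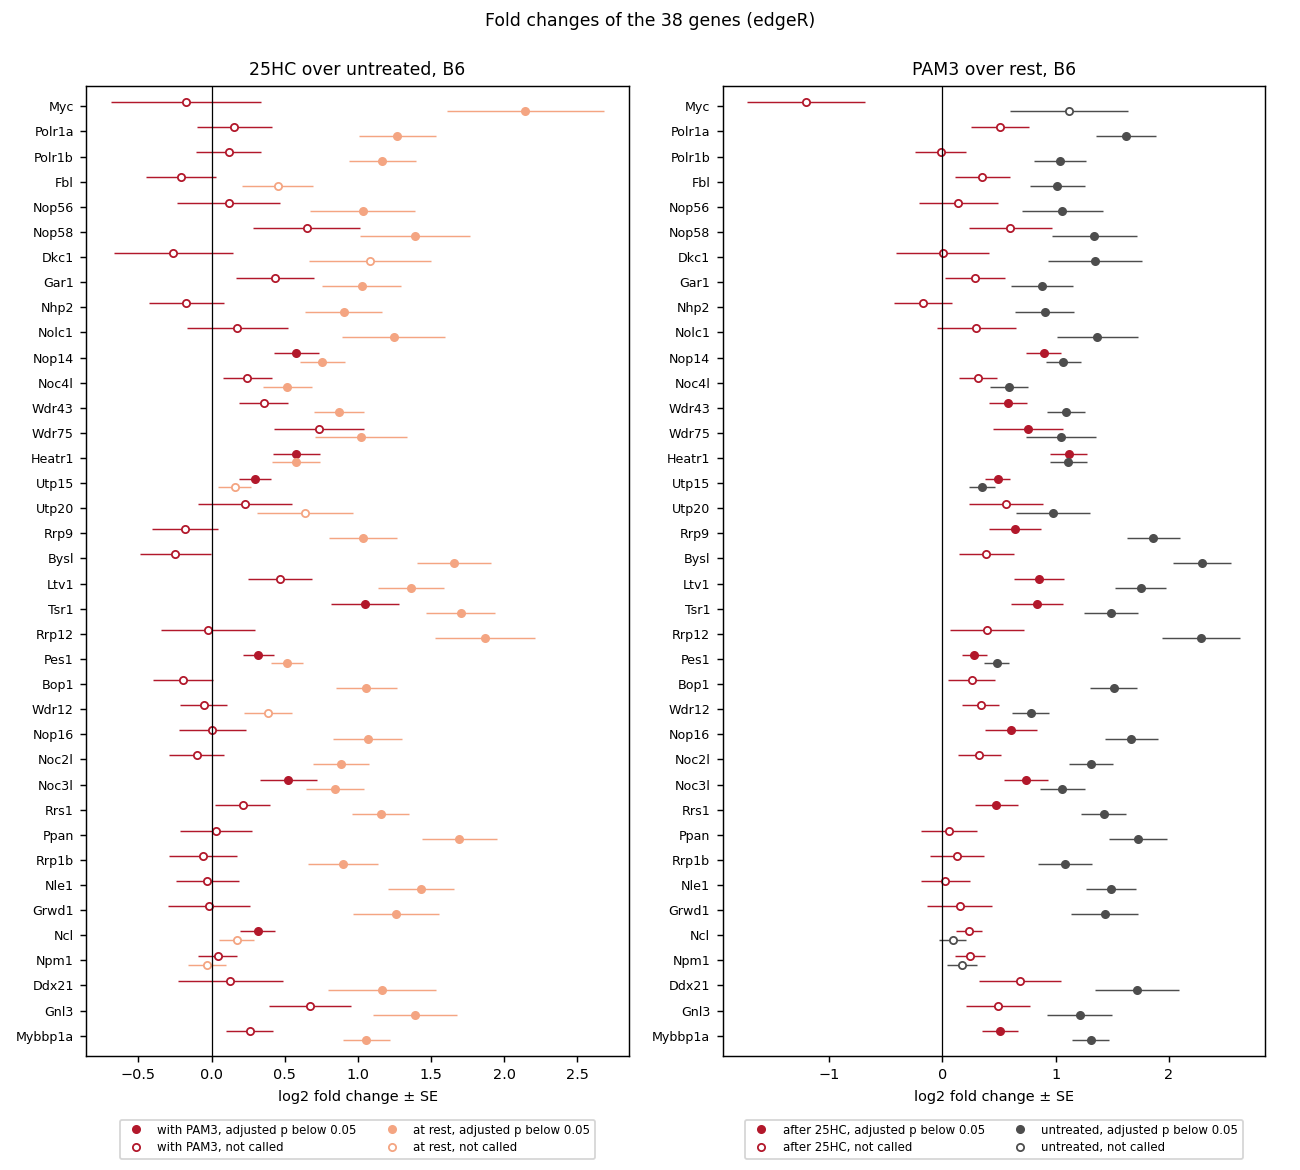
Log2 fold change ± SE of each of the 38 genes from the edgeR fit, for 25HC over untreated B6 cells (with PAM3 and at rest) and for PAM3 over rest (after 25HC and without it), with filled points for adjusted p below 0.05. At rest 31 genes lie above 0 and passed with 25HC, with PAM3 present 7 did, and PAM3 raised 13 genes after 25HC and 35 without it.

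The response to PAM3 in cells given 25HC was narrower. PAM3 raised 13 of the 38 genes in 25HC-treated B6 cells and lowered none (34.2%), against 28.5% of all tested genes that rose and 30.4% that fell, and the median log2 fold change was 0.37 over the 38 genes and -0.02 over all genes. The 13 were 8 small subunit factors (Heatr1, Nop14, Utp15, Ltv1, Wdr43, Tsr1, Rrp9 and Wdr75), 4 large subunit factors (Noc3l, Pes1, Nop16 and Rrs1) and Mybbp1a. Heatr1 was at 154, 128 and 150 CPM with PAM3, against 79.0, 53.1 and 67.5 CPM at rest (log2 fold change 1.11 ± 0.16, edgeR adjusted p = 3.31e-05), and Nop14 at 84.7, 77.4 and 78.7 CPM, against 49.6, 33.8 and 46.1 CPM (0.89 ± 0.15, edgeR adjusted p = 0.000146). Heatr1, Nop14, Utp15, Ltv1, Wdr43, Tsr1 and Noc3l held without any 1 library. The count was 24 with the mouse as block, 20 where only these 6 libraries were fitted and 12 without replicate 2 of every group. It fell to 7 without replicate 2 at rest and to 8 without replicate 2 with PAM3. Under the block 8300 of 12346 tested genes passed in either direction, and the share by direction was not counted. Summed macrophage markers were 31006 to 38569 CPM with PAM3 and 22566 to 24850 CPM at rest in 25HC-treated cells, and the part of this in the result was not tested. Myc lay the other way, at 26.0, 28.3 and 24.4 CPM with PAM3, against 74.8, 32.2 and 74.0 CPM at rest, all lower with PAM3 (-1.20 ± 0.52, edgeR adjusted p = 0.0580). It passed as lower with the mouse as block (-1.10, adjusted p = 0.0111), without replicate 2 at rest (-1.51, adjusted p = 0.0303) and without replicate 2 of every group (-1.56, adjusted p = 4.19e-05). In the fits that left out 1 of the other libraries of these groups Myc did not pass (edgeR adjusted p from 0.0999 to 0.147).

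The difference between the PAM3 responses with and without 25HC was tested as an interaction. It was below 0 for 17 of the 38 genes and above 0 for none (44.7%), against 12.5% of all tested genes above and 15.8% below, with a median of -0.91 over the 38 genes and -0.08 over all genes on the log2 scale. By role these were Myc, both RNA polymerase I subunits, Nhp2, 4 of 12 small subunit factors, 8 of 11 large subunit factors and Mybbp1a. The widest were Myc (-2.32 ± 0.74, edgeR adjusted p = 0.0294), Bysl (-1.91 ± 0.35, edgeR adjusted p = 0.00180), Rrp12 (-1.89 ± 0.47, edgeR adjusted p = 0.00925) and Ppan (-1.67 ± 0.35, edgeR adjusted p = 0.00411). Bysl is an example. Its levels with PAM3 were 34.9, 40.0 and 33.8 CPM after 25HC and 38.1, 47.7 and 43.3 CPM without it. At rest they were 34.2, 17.4 and 31.6 CPM after 25HC and 12.0, 6.27 and 8.24 CPM without it. For Bysl the groups with PAM3 overlapped and those at rest did not. This did not hold for all 17 genes. With PAM3, Ltv1 was at 62.1, 63.6 and 64.3 CPM after 25HC, against 49.0, 43.0 and 45.5 CPM without it. Mybbp1a and Rrs1 were likewise higher after 25HC with PAM3 without overlap, and Myc was lower without overlap. At rest the groups overlapped for Grwd1, Rrp1b and Rrp9. Heatr1 (0.00 ± 0.23), Ncl (0.14 ± 0.17), Utp15 (0.14 ± 0.16) and Npm1 (0.07 ± 0.18) had interactions near 0 that did not pass, with edgeR adjusted p from 0.539 to 0.999.

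Of the 17 interaction calls, 7 held without any 1 library: Bysl, Rrp12, Ppan, Nle1, Bop1, Rrp9 and Noc2l. That of Myc was lost without 25HC replicate 1 or 3 at rest or with PAM3, without untreated replicate 3 at rest or without untreated replicate 2 or 3 with PAM3, at adjusted p up to 0.0696. The count of 17 fell to 7 and 9 without 25HC replicates 1 and 3 at rest, to 10 and 8 without 25HC replicates 1 and 3 with PAM3, to 11 and 10 without untreated replicates 2 and 3 at rest, and to 10 and 11 without untreated replicates 2 and 3 with PAM3. It was 25 without replicate 2 of every group and 19 with the mouse as block. Under the block 4750 of 12931 tested genes passed in either direction.

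Deletion of Ch25h was set against B6 in untreated cells. None of the 38 genes passed at rest, where 1 of all tested genes did (0.00785%), and none with PAM3, where 22 did (0.173%). At an unadjusted edgeR p below 0.05 there was 1 of the 38 genes at rest and 0 with PAM3, and no call under the DESeq2 Wald test either. With the mouse number as block, 2 of 12094 tested genes passed at rest and 381 of 11764 with PAM3, and still none of the 38 genes. This block pairs libraries of different animals. With PAM3 the data do not bear it out either, since the libraries of replicate 3 correlated at r = 0.0949, so the 381 rest on an unproven pairing. The median log2 fold change of the 38 genes was -0.08 at rest and 0.04 with PAM3, with ranges of -1.07 to 0.30 and -0.17 to 0.36. Myc was at 9.35, 2.33 and 7.57 CPM in Ch25h-/- cells at rest, against 24.2, 3.11 and 14.0 CPM in untreated B6 cells at rest. It was lower in 3 of 3 pairs of libraries with the same number, which come from different animals, the groups overlapped, and the test did not pass (-1.07 ± 0.55, edgeR adjusted p = 0.904). The response to PAM3 did not differ detectably between the genotypes for any of the 38 genes (median interaction 0.16, 0 at an unadjusted edgeR p below 0.05), as for all tested genes (0%, with 598 at an unadjusted p below 0.05).

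Other genes of ribosome biogenesis were read from a list chosen by function, outside the set above. With 25HC at rest 70 of 115 such genes rose and none fell (60.9% higher, against 14.8% of all tested genes; median log2 fold change 0.47). With PAM3 in untreated B6 cells 86 rose and 2 fell (74.8% higher, against 31.3% of all tested genes; median 0.69). With 25HC in the presence of PAM3 36 rose and 5 fell (31.3% higher, against 21.5% of all tested genes; median 0.24). The count of 70 was 42 and 44 without 25HC replicates 1 and 3 and 28 where only these 6 libraries were fitted. Among these genes Ddx54, a helicase of the large subunit, was at 103 ± 16.5 CPM after 25HC and 51.4 ± 4.92 CPM in untreated B6 cells at rest (SD, n = 3 each; 1.00 ± 0.14), and Nob1, the nuclease that makes the end of the small subunit RNA, at 21.4 ± 4.84 CPM and 10.8 ± 1.93 CPM (SD, n = 3 each; 0.99 ± 0.16). Of the other 13 genes for RNA polymerase I and its factors 4 were called higher with 25HC at rest (30.8%, against 14.8% of all tested genes; median 0.19), Polr1e, Cd3eap and Taf1a among them. With PAM3 in untreated B6 cells 4 were called higher (30.8%, median 0.05), a share near the 31.3% of all tested genes. Of 9 subunits of the RNA exosome, which trims the precursor, 4 were called higher with 25HC at rest (44.4%, against 14.8% of all tested genes; median 0.42), a count that was 1 without 25HC replicate 1 or 3, 2 without untreated replicate 2 or 3, and 2 where only these 6 libraries were fitted. With PAM3 in untreated B6 cells 6 were called higher (66.7%, against 31.3% of all tested genes; median 0.55), and 1, Exosc7, fell with 25HC in the presence of PAM3.

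The genes for cytosolic ribosomal proteins, whose reads can be shared with near-identical pseudogenes, were called in a single direction in each 25HC comparison. The share called was near the background of that direction, and none were called the other way. Of 79, 12 rose and none fell with 25HC at rest (15.2%), with a median log2 fold change of 0.13. Of all tested genes 14.8% rose and 11.4% fell there. With PAM3 present 20 fell and none rose with 25HC (25.3%), with a median of -0.25. Of all tested genes 23.6% fell and 21.5% rose in that comparison. Rpl10a was at 28.2 ± 4.01 CPM after 25HC and 18.3 ± 2.26 CPM in untreated B6 cells at rest (SD, n = 3 each; 0.62 ± 0.14, edgeR adjusted p = 0.00518). Rpl3 was at 54.2 ± 1.19 CPM in 25HC-treated cells with PAM3 and 74.3 ± 7.42 CPM in untreated B6 cells with PAM3 (SD, n = 3 each; -0.45 ± 0.09, edgeR adjusted p = 0.000538). PAM3 raised 15 and lowered 1 in untreated B6 cells (19.0% higher, below the 31.3% of all tested genes; median 0.09). After 25HC PAM3 raised 3 and lowered 40 (50.6% lower, against 30.4% of all tested genes; median -0.34). The interaction was below 0 for 25 and above 0 for none (31.6%, against 15.8% of all tested genes; median -0.40). Single libraries moved these counts widely, and where only the compared groups were fitted the 12 became 7, the 20 became 10 and the 15 became 6. The 12 became 2 and 4 without 25HC replicates 1 and 3 and 7 and 6 without untreated replicates 1 and 3. The 20 became 10 and 8 without 25HC replicates 1 and 3, and 41 and 6 without untreated replicates 1 and 3. The 15 that PAM3 raised in untreated B6 cells became 25 without replicate 1 with PAM3, and 8 with the mouse as block, and the 1 it lowered became 3 and 9 without replicates 2 and 3 with PAM3. The 40 became 23 without 25HC replicate 1 with PAM3, and the interaction count of 25 ranged over 10 to 44 with 1 library left out, lowest without 25HC replicate 1 or 3 with PAM3 and highest without untreated replicate 1 with PAM3.

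**Figure D4:**
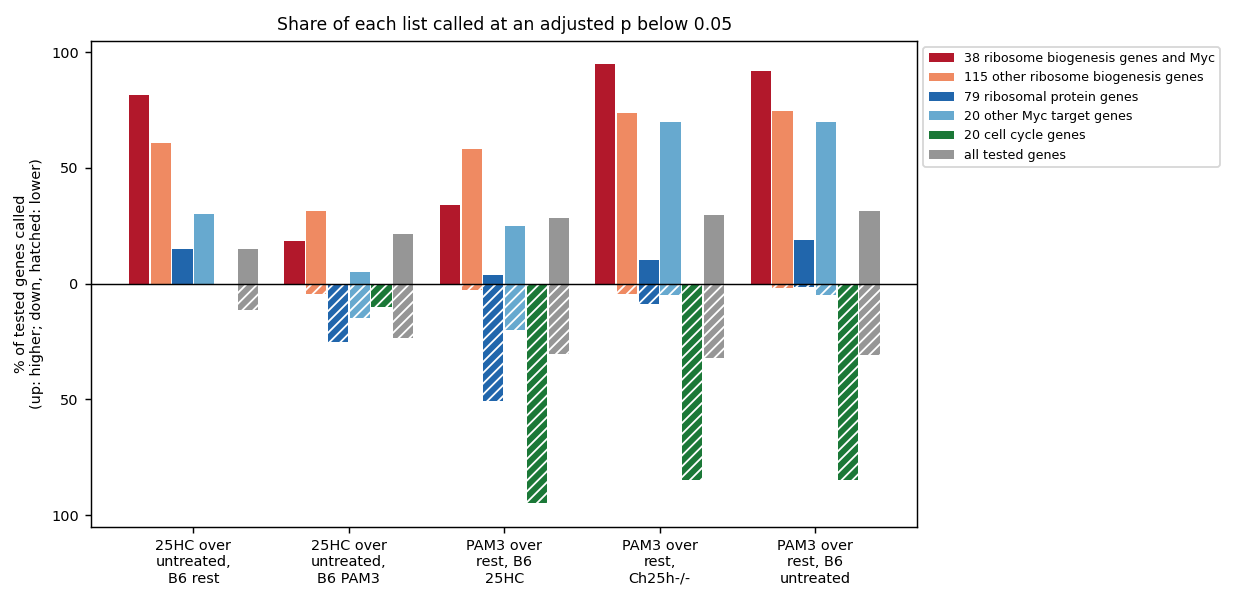
Percent of tested genes that rose (bars upward) or fell (hatched bars downward) at edgeR adjusted p below 0.05 in each list, for each comparison, beside all tested genes. The 38 genes reach 81.6% higher with 25HC at rest, 92.1% with PAM3 in untreated B6 cells and 18.4% with 25HC in the presence of PAM3, and cell cycle genes fall with PAM3.

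The Myc network and other known Myc targets were described in the same way. Of 20 other targets of Myc 6 rose and none fell with 25HC at rest (against 14.8% of all tested genes that rose; median log2 fold change 0.54). With PAM3 in untreated B6 cells 14 rose and 1 fell (70.0% higher, against 31.3% of all tested genes; median 1.11). Srm, which makes spermidine, was at 30.5 ± 11.0 CPM after 25HC and 7.08 ± 4.39 CPM in untreated B6 cells at rest (SD, n = 3 each; 2.13 ± 0.44), and Odc1, the first enzyme of polyamine synthesis, at 88.3 ± 29.2 CPM and 31.3 ± 3.74 CPM (SD, n = 3 each; edgeR adjusted p = 0.000501). The count of 6 at rest was 3 without 25HC replicate 1 or 3, without untreated replicate 2 or 3 or where only these 6 libraries were fitted, 10 without replicate 2 of every group and 13 with the mouse as block. The Myc network list held Max, its partners, relatives of Myc and the Mlx genes. Of its 11 tested genes, 1 rose and 2 fell with 25HC at rest (9.09% and 18.2%, against 14.8% and 11.4% of all tested genes). None of these 3 calls was left without 25HC replicate 1 or 3. Mxd4, a repressor that competes for Max, was among them, at 132 ± 61.9 CPM after 25HC and 263 ± 128 CPM in untreated B6 cells (SD, n = 3 each; edgeR adjusted p = 0.0415). The gene that rose was Mycl, a relative of Myc, at 1.18 ± 0.625 CPM after 25HC and 0.355 ± 0.0202 CPM in untreated B6 cells (SD, n = 3 each). Where genes were kept at 1 CPM in 3 libraries, 0 of this list were called higher. With PAM3 these 11 genes were mostly lower: 2 rose and 6 fell in untreated B6 cells (54.5% lower, against 30.8% of all tested genes) and 2 rose and 7 fell in Ch25h-/- cells (63.6% lower, against 32.1%), with 9 of 11 fold changes below 0 in each. The 7 in Ch25h-/- cells were 4 with the mouse as block. With PAM3 present 4 of the 11 rose and 2 fell with 25HC, against 21.5% and 23.6% of all tested genes. The repressor Mnt was then at 74.3 ± 1.63 CPM after 25HC and 43.7 ± 4.91 CPM in untreated B6 cells (SD, n = 3 each; 0.76 ± 0.10). Cell cycle genes went against the 38 genes with PAM3. In untreated B6 cells 17 of 20 fell and none rose (median -2.95), against 30.8% of all tested genes that fell. After 25HC 19 fell (median -3.87, against 30.4%), and in Ch25h-/- cells 17 fell (median -2.71, against 32.1%). Ccna2, a cyclin of S phase and mitosis, was at 1.46 ± 0.648 CPM with PAM3 and 88.2 ± 40.7 CPM at rest in untreated B6 cells (SD, n = 3 each; -6.01 ± 0.75). With 25HC in the presence of PAM3, 2 of the 20 fell, a share below the 23.6% of all tested genes. The count was 13 without replicate 2 of every group or with the mouse as block. Under the block 6414 of 12309 tested genes passed in either direction. In the comparisons of Ch25h-/- with B6 none of the genes of these lists passed. With the mouse number as block, which here pairs different animals, 3 did with PAM3, all lower in Ch25h-/- cells. They were 1 each of the Myc network, the other Myc targets and the other small subunit factors.

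The labels do not state whether reads were counted by strand, and 19 of the 38 genes share exon sequence with a gene on the other strand. Among them are Heatr1 with Lgals8, Bysl with Ccnd3, Dkc1 with Mpp1, Bop1 with Mroh1, Gnl3 with Pbrm1, Nop56 with Idh3b and Rrp9 with Parp3, partners that are themselves expressed here. Values of these genes are uncertain to the extent that reads of the partner were counted. Polr1b, Rrp12, Ltv1, Ppan, Rrs1, Nop58, Ncl, Npm1, Ddx21 and Myc have no such partner in the GENCODE M21 annotation.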

How the data were processed

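The authors deposited raw counts, in 1 table of 30530 genes by 18 libraries. Per the submitters' processing notes, reads were checked with FastQC 0.11.9, aligned to GRCm38 (mm10) with GSNAP, counted with featureCounts of Subread 1.5.2 and analysed with edgeR 3.26.8. The libraries were stranded, per the labels' protocols. The labels and processing notes do not state the strand setting, the handling of multiply aligned reads or the annotation.

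Counts were tested with edgeR 4.0.16 in R 4.3.3 (limma 3.58.1): after filterByExpr on the 6 groups and TMM scaling, all 18 libraries entered 1 fit with group means, and contrasts were read by the quasi-likelihood test in its robust form, two-sided, and p-values were adjusted by Benjamini-Hochberg across the 12741 genes tested. A gene rose or fell at an adjusted p below 0.05. The standard error is the size of the log2 fold change over the root of F. CPM uses total counts multiplied by the TMM factor. The common dispersion was 0.0370, with 12 residual degrees of freedom. The steps were tested on simulated data.

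The 38 genes and the other lists (339 genes with the cell markers, 334 of them in the file) were chosen with earlier results of these data known, so their counts and medians are descriptions. All 38 genes could be named; of the other lists, called genes of smallest adjusted p were. Exon lengths, positions and overlaps came from GENCODE M21, in which all 38 identifiers were found, and start regions from RefSeq.

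The mouse number pairs libraries of 1 genotype, since the labels give it as the animal. Deviations from the group means of the same mouse correlated at r = 0.448, 0.581 and 0.348 between 25HC-treated and untreated cells at rest and at 0.406, 0.377 and -0.162 with PAM3, and at -0.0777 to 0.306 between PAM3 and rest. Libraries of the same number in Ch25h-/- and B6 mice, which are different animals, correlated as well: with PAM3 r was 0.322, 0.459 and 0.0949, and at rest 0.574, 0.705 and 0.327. The number is thus a block across genotypes at rest by the data alone (every pair above 0.1), and what it stands for there is not stated. With PAM3 it is not a block across genotypes by this rule, since replicate 3 was at 0.0949. No replicate pair looked like 1 library deposited again. Alternatives were DESeq2 size factors, the DESeq2 1.42.0 Wald test, genes unfiltered or kept at 1 CPM in 3 libraries, only the compared groups in the fit, each library left out, the mouse as block and, chosen after seeing the data, replicate 2 of every group left out.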

Additional observations from a re-analysis of the deposited data

Results flagged for a closer look

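The response to PAM3 differed between 25HC-treated and untreated B6 cells, by the test of the interaction, in 17 of the 38 genes. All had the lower log2 response after 25HC on the signed scale, which is not always a smaller one. After 25HC the mean of Myc was lower with PAM3 than at rest. The same held for Nhp2 (30.3 against 34.1 CPM) and, by little, for Polr1b (23.8 against 24.1 CPM). The differences, as the response after 25HC minus the response without it on the log2 scale, were -2.32 for Myc, -1.11 for Polr1a and -1.05 for Polr1b, and -1.08 for Nhp2. For small subunit factors they were -1.91 for Bysl, -1.89 for Rrp12, -1.22 for Rrp9 and -0.90 for Ltv1. For large subunit factors they were -1.67 for Ppan, -1.46 for Nle1, -1.28 for Grwd1, -1.25 for Bop1, -1.06 for Nop16, -0.98 for Noc2l, -0.96 for Rrp1b and -0.95 for Rrs1, and for Mybbp1a -0.80. In Myc the 25HC-treated cells were at 26.2 ± 1.99 CPM with PAM3 and 60.3 ± 24.4 CPM at rest, and the untreated cells at 29.6 ± 0.955 CPM with PAM3 and 13.8 ± 10.6 CPM at rest (SD, n = 3 each).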

How the results depend on the processing

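Of 4902 values of single genes under other settings, 4648 kept their direction or side of the threshold, 174 lost and 80 gained a call, no called value changed sign, and 288 values called in neither setting changed sign. The count of genes that rose with 25HC at rest, 31, was 17 where only the compared groups were fitted and 21 to 33 with 1 library left out. With 25HC in the presence of PAM3 the count of 7 was 13 with only the compared groups, 13 with the mouse as replicate block and 13 without replicate 2 of every group, and 3 to 6 with 1 library left out. For PAM3 after 25HC the count of 13 was 20 with only the compared groups, 24 with the replicate block and 7 to 14 with 1 library left out, and the count that fell, 0, was 1 with the DESeq2 Wald test, 1 with only the compared groups, 1 with the replicate block, 0 to 1 with 1 library left out and 2 (Myc and Nhp2) without replicate 2 of every group. For PAM3 in untreated B6 cells the range with 1 library left out was 32 to 36, and in Ch25h-/- cells it was 36 throughout. The interaction count of 17 was 7 to 23 with 1 library left out. The cause of these moves was not tested, apart from the fewer libraries that a left-out fit and a fit of the compared groups hold. Under the replicate block 5051 of 12198 tested genes passed in either direction for 25HC at rest. The counts were 6414 of 12309 for 25HC with PAM3 and 8300 of 12346 for PAM3 after 25HC. For the other settings the share of all tested genes was not counted. For Ch25h-/- against B6, where the block pairs different animals, the counts were 2 at rest, against 1 without the block. With PAM3 the count was 381, against 22 without it. No other count of the 38 genes moved by over 1.5 times under the block.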
